A study of Mus musculus with 5 samples.

Results

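Regulatory T cells in this data set were the T cells of doxorubicin-treated 4T1 mammary tumors that carried Foxp3 transcripts and no Cd8b1 transcripts. 4T1 is a mouse triple negative breast cancer line, and the tumors grew in the mammary fat pad of female BALB/c mice labelled as 12 weeks old. All mice behind the T cell libraries had received doxorubicin (DOX), an anthracycline that damages DNA, intravenously at 5 mg/kg in 3 treatments 3 days apart, and the tumors were divided by outcome into sensitive (growth inhibited under DOX) and resistant (growth unaffected). T cells were enriched by magnetic depletion of other immune cells and of CD90.1-positive cancer cells, and each library pooled the T cells of 3 tumors. Single-cell RNA sequencing gave 1 T cell library for sensitive and 1 for resistant tumors, so no replicates exist, no test between the conditions could be made, and every interval below is a 95% interval that covers counting error only.

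A barcode was counted as a member when it held at least 500 detected genes, at most 10% of its unique molecular identifiers (UMIs) in mitochondrial genes, at least 1 UMI of Cd3d, Cd3e or Cd3g, at least 1 UMI of Foxp3 and no UMI of Cd8b1. This gave 49 sensitive and 13 resistant members, 62 of 4207 CD3+ cells and of 11119 barcodes in all 5 libraries of the series. The members were thus chosen by measured values, the UMIs of Foxp3, Cd8b1 and the Cd3 genes, so the levels of these genes in the members are not findings. All other genes were read from the same few cells and are given as descriptions.

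Regulatory T cells restrain other T cells. The transcription factor Foxp3 holds their program in place, and they are known to display the high-affinity interleukin-2 receptor chain Il2ra (CD25), the inhibitory receptor Ctla4, the tumor necrosis factor receptor family members Tnfrsf4 (OX40) and Tnfrsf18 (GITR), and, in many of them, the transcription factor Ikzf2 (Helios). In tissues and tumors a part of this population takes on an effector state with chemokine receptors such as Ccr8 and with repair factors such as amphiregulin (Areg).

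The libraries differed in quality. The sensitive library held 3949 barcodes with a median of 4460 UMIs and a median mitochondrial share of 2.47%, and the filters removed 9.85% of them. The resistant library held 6116 barcodes with a median of 3354 UMIs and a median mitochondrial share of 8.95%, and the same filters removed 46.9%. Total UMIs were 31690845 and 35908799. The libraries shared 31 barcode sequences, none of which was a member. Members had a median of 2961 UMIs (707 to 26027) and a mitochondrial median of 2.52% in the sensitive library, against 3186 UMIs (1538 to 8121) and 7.39% in the resistant library. The part of mitochondrial content in the results below was not tested.

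Regulatory T cells made up a larger share of T cells in the sensitive library. They were 49 of 2128 CD3+ cells there (2.30%, exact interval 1.71 to 3.03%) and 13 of 2079 in the resistant library (0.625%, 0.333 to 1.07%), so that the share was 3.68 times as large (interval 2.0 to 6.77). When each cell was thinned to 1000 UMIs the shares were 31 of 2008 (1.54%) and 13 of 1959 (0.664%), a ratio of 2.33 (1.22 to 4.43). Admitting barcodes with at least 200 genes and up to 20% mitochondrial UMIs left 49 members in the sensitive library and raised the resistant count to 25, with a ratio of 2.63 (1.63 to 4.24). The conventional helper cells, CD3+ cells with Cd4 and with no Foxp3, Cd8a or Cd8b1, differed by nearly the same factor, at 193 cells (9.07%) against 49 (2.36%), which is 3.85 times (2.83 to 5.23). Within the members and these helper cells together, members were 49 of 242 sensitive cells (20.2%, 15.4 to 25.9%) and 13 of 62 resistant cells (21.0%, 11.7 to 33.2%), and the quotient of these shares was 0.966 (0.560 to 1.66). Helper cells needed a Cd4 UMI and members did not, which raises both shares. The quotient was 0.729 (0.343 to 1.55) with a Cd4 UMI required of members and 0.699 (0.407 to 1.20) after thinning. The CD8 gate, CD3+ cells with Cd8b1 and with no Foxp3 or Cd4, made up 62.6% of sensitive and 80.0% of resistant CD3+ cells.

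**Figure D1:**
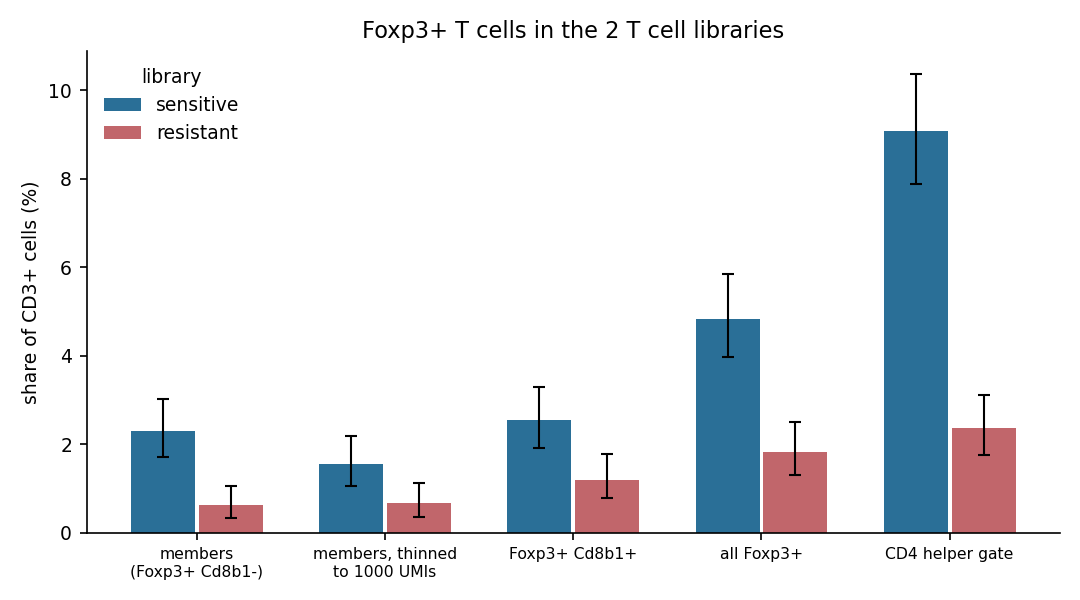
Share of CD3+ cells (percent) held by members, by members after thinning, by Foxp3+ Cd8b1+ cells, by all Foxp3+ cells and by CD4 helper cells in the sensitive and resistant T cell libraries. Error bars are exact 95% intervals that cover counting error, and the sensitive bar is the higher of each pair, as for members at 2.30% and 0.625%.

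The label was checked against the markers that the rule did not use. In the sensitive library Ikzf2 was detected in 48 of 49 members (98.0%), Tnfrsf4 in 46 (93.9%), Ctla4 in 39 (79.6%) and Il2ra in 36 (73.5%). In the resistant library Tnfrsf4 was detected in 11 of 13 members (84.6%), Ctla4 in 10 (76.9%), Ikzf2 in 8 (61.5%) and Il2ra in 6 (46.2%). At least 2 of these 4 markers were seen in 95.9% and 92.3% of members, in 60.6% and 46.9% of helper cells, in 24.8% and 28.7% of CD8 cells, and in 0% and 0.185% of fibroblast barcodes. After thinning to 1000 UMIs the shares were 80.4% and 61.5% of members, 22.5% and 18.4% of helper cells, and 4.61% and 3.44% of CD8 cells. Foxp3 itself was at 0 of 778 and 0 of 542 fibroblasts, which allows a share of up to 0.386% and 0.554%, although fibroblasts were deeper than the members (medians of 13144 and 13763.5 UMIs).

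Marker levels, as CPM (a gene's share of the summed member UMIs, scaled to 1e6), were above the resistant value in the sensitive library for the 4, with counting intervals above 1 for Tnfrsf4, Ikzf2 and Ctla4. Tnfrsf4 stood at 2015 against 1107 CPM, a ratio of 1.82 (1.36 to 2.48), Ikzf2 at 862 against 564 (1.53, 1.01 to 2.40), Ctla4 at 1162 against 803 (1.45, 1.02 to 2.10) and Il2ra at 723 against 564 (1.28, 0.844 to 2.02). Leaving out the 1 member richest in each gene lowered the ratios to 1.71, 1.45, 1.34 and 1.14, and the intervals of the last 3 then included 1. The Il2ra ratio had no stable direction, at 0.888 (0.567 to 1.45) with at least 2 Foxp3 UMIs, 0.935 (0.574 to 1.58) without cycling members and 4.87 (1.83 to 18.3) with a Cd4 UMI required, and Ikzf2 was at 1.17 (0.867 to 1.60) with the looser filters. Foxp3, which chose the cells, stood at 144 UMIs (627 CPM) and 28 UMIs (608 CPM), with a median of 2 UMIs a cell in both libraries.

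**Figure D2:**
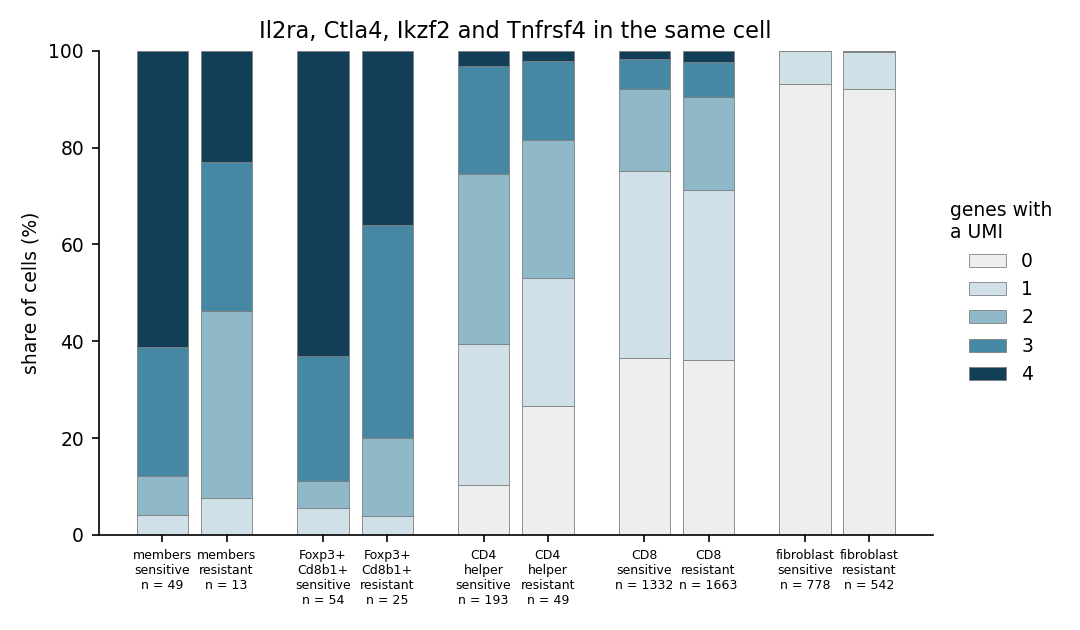
Share of cells (percent) in which 0 to 4 of the markers Il2ra, Ctla4, Ikzf2 and Tnfrsf4 had a UMI in the same cell, for each gate and library, with the number of cells under each bar. All 4 markers were together in 30 of 49 and 3 of 13 members and were rare in CD8 cells and fibroblasts.

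The bases before the RefSeq start sites of Foxp3 and Ctla4 are shown because Foxp3 defines the cells and Ctla4 was the marker with the closest cell shares in the libraries. They come from the RefSeq promoter table of build GRCm38.p6, where 4 of the 5 markers were found (Ikzf2 was not), and are read on the plus strand. Both stretches lie inside the longer gene spans of the GENCODE annotation and leave out annotated exon sequence, so that Foxp3 (chrX:7573644-7595245) is given over chrX:7579426-7579566 and Ctla4 (chr1:60887000-60915832) over chr1:60908775-60909024. Capitals mark a match to the NFAT core GGAAAA, here on the minus strand.
Foxp3: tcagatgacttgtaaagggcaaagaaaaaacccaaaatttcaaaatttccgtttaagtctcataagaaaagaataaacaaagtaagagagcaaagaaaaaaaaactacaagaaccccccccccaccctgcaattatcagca
Ctla4: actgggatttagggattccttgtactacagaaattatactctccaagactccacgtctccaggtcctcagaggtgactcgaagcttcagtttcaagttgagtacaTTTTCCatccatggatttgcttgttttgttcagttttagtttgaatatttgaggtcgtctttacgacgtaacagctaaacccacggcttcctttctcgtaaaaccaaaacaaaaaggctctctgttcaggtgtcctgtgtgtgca
Of 32851 promoters searched on both strands over 250 bases upstream, 20.4% held GGAAAA, 6.75% the AP-1 motif TGANTCA and 3.17% the forkhead motif TGTTTAC. Among the Foxp3, Ctla4, Il2ra and Tnfrsf4 promoters the match in Ctla4, which begins at base 106 of the stretch above, was the only match to any of the 3 motifs. Such a match describes letters and is not evidence of binding.

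Members with 1 Foxp3 UMI, the threshold of the rule, also carried the other markers. In the sensitive library 19 members had a single Foxp3 UMI, with 2 or more of the other markers in 17 of them (89.5%), and 30 had 2 or more UMIs, all with 2 or more markers. In the resistant library 6 members had 1 Foxp3 UMI, of which 5 (83.3%) had 2 or more markers, and 7 had more, all with 2 or more markers. Just outside the rule, 583 and 285 CD3+ cells held neither Foxp3 nor Cd8b1, and 33.4% and 17.9% of them had 2 or more markers. All 4 markers together were found in 30 of 49 and 3 of 13 members, and in 11 and 4 of the cells just outside. Cd4 was seen in 22 of 49 (44.9%) and 8 of 13 (61.5%) members, and members without a Cd4 UMI also carried 2 or more markers, in 27 of 27 and 5 of 5 cells. Cd8a was seen in 1 member of each library.

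More Foxp3+ T cells were left out by the Cd8b1 criterion than were kept. CD3+ cells with both Foxp3 and Cd8b1 numbered 54 (sensitive) and 25 (resistant), which is 52.4% and 65.8% of all Foxp3+ T cells of the library. For comparison, Cd8b1 was seen in 70.3% and 85.7% of all CD3+ cells. Among CD3+ cells with Cd4 and no Foxp3 it was seen in 36.1% and 63.3%. These Foxp3+ Cd8b1+ cells are described next. They were deeper than members, with medians of 7456.5 and 6940 UMIs, and they carried Cd8b1 at a median of 7.5 and 6 UMIs a cell, next to 7 in the CD8 gate of either library. Only 7 and 2 of them had a single Cd8b1 UMI, and 38 and 17 had at least 5. Cd8a was seen in 85.2% and 96.0% of them, Cd4 in 38.9% and 32.0%, and 2 or more of the regulatory markers in 94.4% and 96.0%. Foxp3 stood at 344 and 293 CPM in them, next to 627 and 608 CPM in members, with a median of 2 UMIs a cell in each gate and library. Cd8b1 stood at 916 and 1049.6 CPM, next to 1595 and 1201 CPM in the CD8 gate. The gates compared both required the gene, and its CPM falls with depth at a given count, so these levels are not findings. A doublet score (Scrublet) placed 1 of the 54 and 3 of the 25 among the likely doublets, and none of the members. Thinned to 1000 UMIs, 20.5% and 23.5% of Foxp3+ T cells still showed Cd8b1, and fibroblasts showed a Cd8b1 UMI in 0.643% and 0.738%. Whether these barcodes hold 1 cell or a pair of cells was not tested. Counting them as members gave 103 and 38 cells and a ratio of shares of 2.65.

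**Figure D3:**
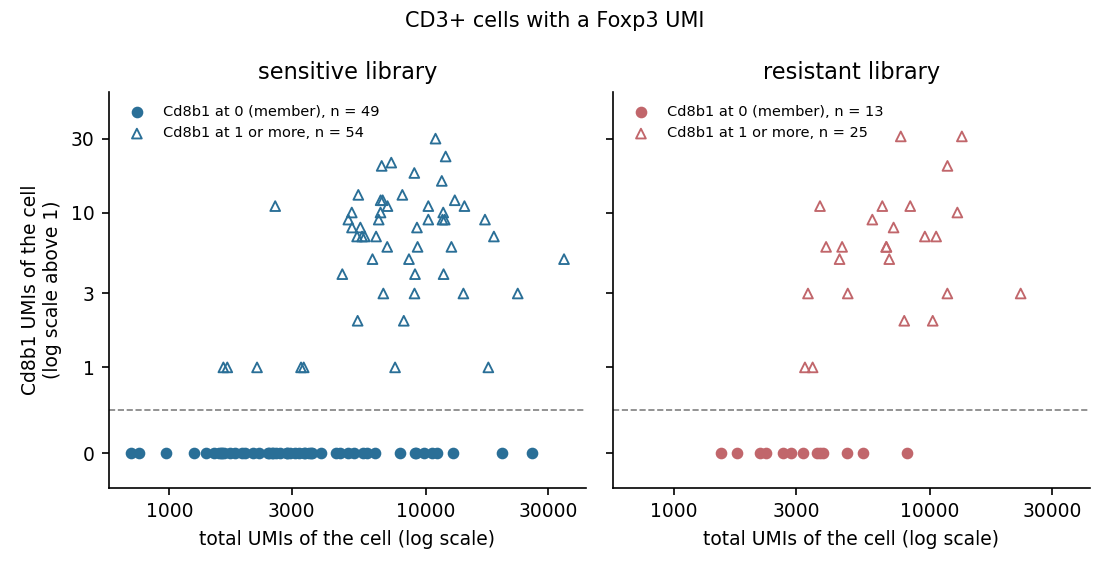
Cd8b1 UMIs (log scale above 1) against total UMIs (log scale) for every CD3+ cell with a Foxp3 UMI in the sensitive and resistant libraries. The 49 and 13 members lie at 0 Cd8b1 UMIs below the dashed line, and the 54 and 25 cells with Cd8b1 (triangles) reach medians of 7.5 and 6 UMIs and lie mostly at higher depth.

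Against the helper cells of the same library, members held more Ikzf2, Il2ra, Tnfrsf4 and Ctla4, together with Pim1, Zfp36l1, Ly6a, Itgb7 and Cxcr4, and less Ccl1, Il13, Bcl2 and Cxcr6. Median depth was 4266 and 3099 UMIs in helper and 4122 and 4832 UMIs in CD8 cells, next to 2961 and 3186 in members. In both libraries 39 of 1235 genes, 3.16%, were at least 2-fold higher in members and 25, 2.02%, at least 2-fold lower. The 5 markers, of which Foxp3 was fixed by the rule, were among the 39. Ikzf2 was 33.1-fold higher in the sensitive and 3.17-fold in the resistant library, Il2ra 2.63- and 14.7-fold, Tnfrsf4 3.08- and 2.21-fold, and Ctla4 2.11- and 2.49-fold. A single resistant member held 16 of the 26 Il2ra UMIs there, and without it Il2ra was 5.93-fold (2.11 to 17.3) above helper cells. Without the member richest in the gene, Tnfrsf4 was 1.74-fold (1.14 to 2.59) higher in the resistant and Ctla4 1.95-fold (1.67 to 2.26) higher in the sensitive library, both then under the 2-fold limit. Beyond the markers, among genes seen in at least 8 members of each library, the leading genes were Pglyrp1, a peptidoglycan recognition protein (5.26- and 3.66-fold), the kinase gene Pim1 (3.53- and 4.08-fold), the RNA-binding protein gene Zfp36l1 (4.22- and 3.42-fold) and the glutaredoxin gene Glrx (3.26- and 4.98-fold). Next came Smc4 (3.11- and 3.24-fold) and Ly6a, which encodes Sca-1 (3.09- and 8.04-fold). The homing receptors Itgb7 (2.56- and 7.17-fold) and Cxcr4 (2.40- and 5.47-fold) were also higher in members, as was Rgs2 (2.91- and 4.31-fold), a regulator of G protein signalling.

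Both helper cytokines that passed the filter on level, Csf2 and Il13, were at least 2-fold lower in members, and of the 9 counted transcription factors Ikzf2 and Foxp3, the latter fixed by the rule, passed the 2-fold limit in both libraries, with list medians of 1.32 and 2.10. The chemokine gene Ccl1 had 1 UMI in sensitive and 2 in resistant members, at 0.0046 and 0.013 of its CPM in helper cells. Il13 was seen in 28.0% and 8.16% of helper cells and Il4 in 26.9% and 2.04%, and neither was seen in a member of either library. Ifitm1 was at 0 UMIs in members against 1033 and 140 in helper cells. The anti-apoptotic gene Bcl2 was at 0.24 and 0.08 of its helper level, the inhibitory receptor Pdcd1 at 0.27 and 0.38, and the residency-associated receptor Cxcr6 at 0.41 and 0.18. None of the 13 listed helper cytokines reached 20 UMIs over all members.

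Against CD8 cells members held more Tnfrsf4, Tnfrsf18, Ikzf2 and Cxcr4 and less of the cytotoxic genes. Of 1248 genes, 76 (6.09%) were at least 2-fold higher in members in both libraries and 42 (3.37%) at least 2-fold lower. Tnfrsf4 was 28.6- and 23.1-fold higher, Ikzf2 16.8- and 6.83-fold, Il2ra 15.4- and 14.0-fold (5.67-fold in the resistant library without the member richest in it) and Tnfrsf18 6.93- and 7.32-fold. Ass1, the argininosuccinate synthase of arginine synthesis, was 8.21- and 10.5-fold higher, Pim1 7.49- and 7.75-fold and Klf2, a transcription factor of circulating T cells, 6.32- and 4.59-fold. Of the 10 counted homing genes 6 were higher, among them Ccr2, Ccr7, Cxcr4, Itgae and Itgb7, and Cxcr6 was lower. Cxcr4 was 6.33- and 26.6-fold, Itgb7 3.84- and 15.9-fold, and Itgae, which encodes the CD103 chain that pairs with Itgb7, 3.35- and 8.80-fold higher. Of the 6 counted cytotoxic genes, 5 were lower in members (Ccl4, Ccl5, Gzma, Gzmb and Nkg7), with Gzmb at 0.15 of the CD8 level in both libraries and Nkg7 at 39 UMIs against 26207 in the sensitive and 3 against 30017 in the resistant library. All 5 counted fibroblast markers (Col1a1, Col1a2, Col3a1, Dcn and Sparc) and the macrophage marker Apoe were also at least 2-fold lower in members than in the CD8 gate of both libraries, and the part of other cells' RNA in this comparison was not tested.

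**Figure D4:**
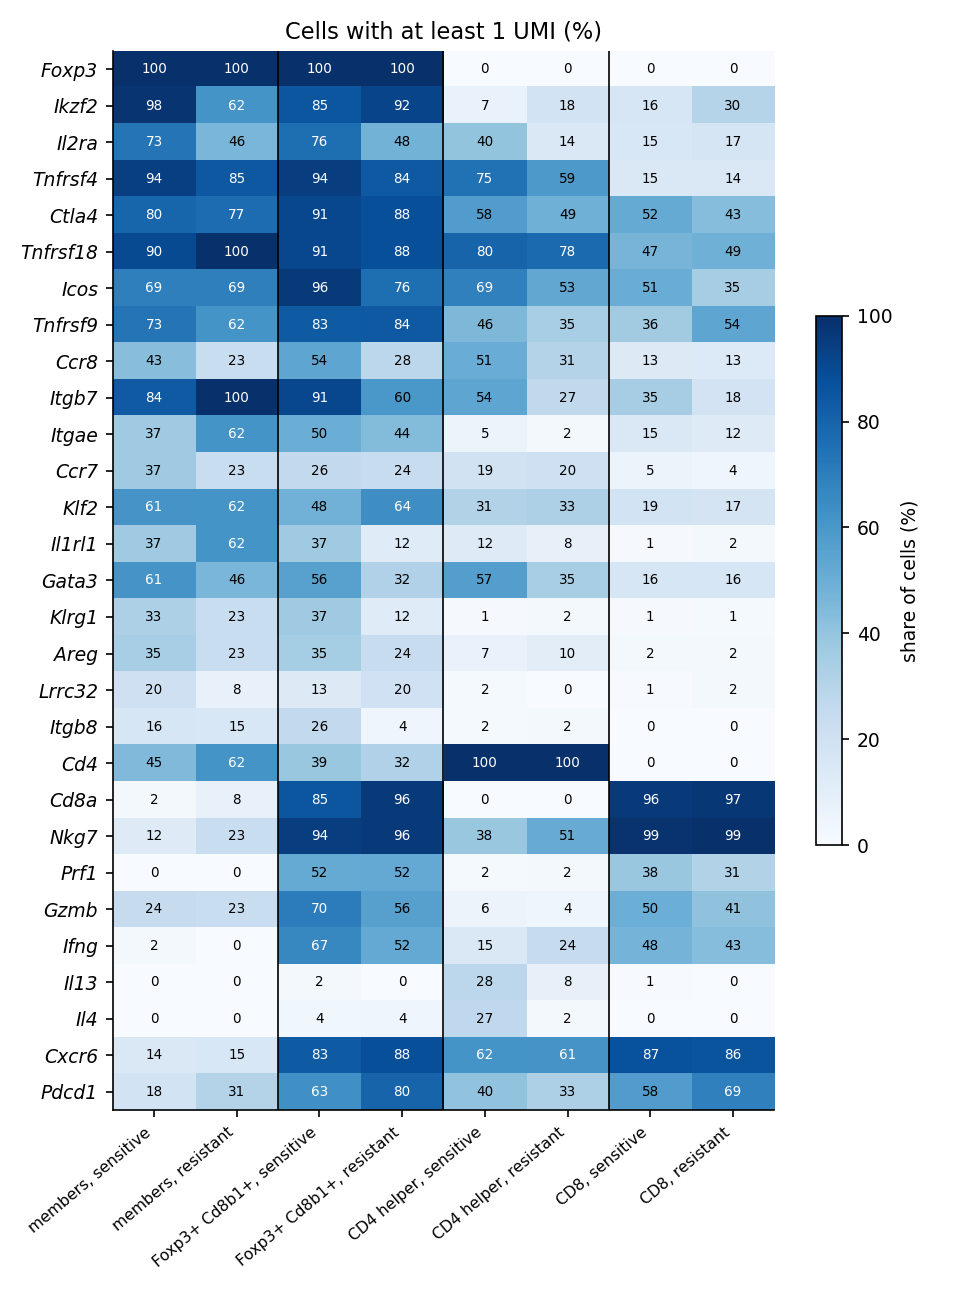
Share of cells with at least 1 UMI (percent, written in each square and shown as shade) for named genes in members, Foxp3+ Cd8b1+ cells, CD4 helper cells and CD8 cells of both libraries, without correction for depth. Foxp3, Cd4, Cd8b1 and, for helper cells, Cd8a defined the gates. Ikzf2 was in 98.0% and 61.5% of members, and Nkg7 in 94.4% and 96.0% of the Foxp3+ Cd8b1+ cells.

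The Foxp3+ Cd8b1+ cells were nearest to the members by count. Only 13 of 1250 genes (1.04%) were at least 2-fold higher in members in both libraries and 28 (2.24%) at least 2-fold lower. Among the former were Pim1 (2.06- and 2.83-fold), Zfp36l1 (2.17- and 2.42-fold), Cxcr4 and Ddit4. Among the latter were Cd8a, Nkg7, Klrd1, Klrc1, Ccl4, Ccl5, Lag3, Pdcd1 and Ifng, genes of cytotoxic or chronically stimulated T cells. Thinned to 1000 UMIs, Gzmb was seen in 37.0% and 20% of the Foxp3+ Cd8b1+ cells, in 33.2% and 24.1% of CD8 cells, and in 6.52% and 0% of members.

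Between members of the sensitive and the resistant library, 363 of 2207 counted genes (16.4%) were at least 2-fold higher in the sensitive and 131 (5.94%) at least 2-fold higher in the resistant library, with a median ratio of 1.11 over all counted genes, and these shares are the background for each gene list that follows. Counting a gene took at least 20 UMIs over all members, whose summed UMIs were 229746 for sensitive and 46081 for resistant members. A gene could therefore pass mainly through the sensitive members, while one seen mainly in resistant members had less chance to pass. The larger number of genes on the sensitive side is thus not a finding, and the lists below went through the same filter. Of 15 counted transcription factors 2 were at least 2-fold higher in the sensitive library and 2 lower, with a median ratio of 1.13. Batf, an AP-1 factor of effector regulatory T cells, had 72 UMIs against 4 (3.61, 1.35 to 13.6), and Nfil3 had 50 against 4 (2.51, 0.920 to 9.56). Runx1, a partner of Foxp3, was seen in 13 of 49 sensitive and 10 of 13 resistant members, with 19 against 11 UMIs (0.346, 0.157 to 0.806), and the chromatin organizer Satb1 had 24 against 11 UMIs (0.438, 0.206 to 0.990; 0.606, 0.253 to 1.66, without its richest member and 1.24 with Cd8b1+ cells counted). Gata3, a factor of type 2 helper and tissue regulatory T cells, had a ratio of 1.07 (0.602 to 2.06; from 0.576 with a Cd4 UMI required to 1.97 with Cd8b1+ cells) and was detected in 61.2% and 46.2% of members.

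Among costimulatory receptors, 1 of 7 counted was past the 2-fold limit, with a median ratio of 1.09. This was Tnfrsf9 (4-1BB), seen in 36 of 49 and 8 of 13 members with 355 and 19 UMIs (1545 and 412 CPM). Its ratio was 3.75 (2.36 to 6.30), and 3.24 without the member richest in it. In the CD8 and helper gates the Tnfrsf9 ratio was 0.892 and 1.40, and in the Foxp3+ Cd8b1+ cells it was 2.14 (1.70 to 2.71). Tnfrsf18 and Icos were close to even, at 1.09 (0.799 to 1.52) and 1.05 (0.714 to 1.58), and Icos was at 1.70 (1.36 to 2.15) with Cd8b1+ cells counted. Of 4 counted inhibitory receptors 1 was past the limit, Klrg1, at 40 against 3 UMIs (2.67, 0.852 to 13.5), which ran from 1.56 to 5.59 over the alternatives. Tigit was detected in 69.4% and 46.2% of members with a ratio of 1.97 (1.02 to 4.23), and 1.76 (0.912 to 3.81) without its richest cell. Pdcd1 was seen in 18.4% and 30.8%, Lag3 in 20.4% and 0%, and Havcr2 in no member.

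Among suppressive mediators the genes past the 2-fold limit, Il1r2, Penk, Tgfb1 and Lrrc32, were all on the sensitive side. They reached the limit of 20 UMIs mainly through the sensitive members, so their shared direction is not a finding about the list. Of 9 counted suppressive mediators (16 listed) 4 were at least 2-fold higher in the sensitive library and none lower, with a median ratio of 1.81. Il1r2, the decoy receptor for interleukin-1, had 77 UMIs against 2 (7.72, 2.07 to 64.9). Lrrc32 (GARP), which holds latent TGF-beta on the cell surface, had 19 against 1 (3.81, 0.606 to 158; 0.914 with the looser filters), and Tgfb1 had 46 against 4 (2.31, 0.842 to 8.82). Tgfb1 was under 2-fold at 1.60 with Cd8b1+ cells counted, 1.72 with a Cd4 UMI or at least 2 Foxp3 UMIs required, and 1.94 with the looser filters. Il10 was seen in 1 of 49 and 0 of 13 members and Prf1 in none. Lrrc32 was detected in 20.4% and 7.69% of members against 1.55% and 0% of helper cells, and Itgb8, a subunit of the integrin that activates TGF-beta, in 16.3% and 15.4% against 1.55% and 2.04%. The list as a whole was not higher in members: of its 6 genes counted against helper cells none was at least 2-fold higher in both libraries and Lgals1 was at least 2-fold lower, with median ratios of 0.646 and 0.404.

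Of 7 counted tissue repair genes 4 (Penk, Areg, Klrg1 and Nfil3) were at least 2-fold higher in the sensitive library, with a median ratio of 2.51. Areg, an epidermal growth factor receptor ligand, was seen in 17 of 49 and 3 of 13 members, with 219 against 3 UMIs (953 and 65.1 CPM, ratio 14.6, 4.94 to 71.5). The richest sensitive member held 81 of these UMIs, and without it the ratio was 9.61 (3.22 to 47.2). No resistant member had more than 1 Areg UMI, but this held only under the 10% mitochondrial limit. With at least 200 genes and up to 20% mitochondrial UMIs, the sensitive members stayed the same and 12 resistant members were added, which all had at least 500 genes and more than 10% mitochondrial UMIs. Of these, 3 held 47 Areg UMIs, 24 of them in 1 cell, and the ratio was 1.48 (1.08 to 2.05). It was 4.58 (1.19 to 39.2) with a Cd4 UMI required and 2.10 (1.58 to 2.85) with the Foxp3+ Cd8b1+ cells counted too. In the same libraries the Areg ratio was 0.904 in CD8 cells, 0.699 in helper cells and 0.941 in the Foxp3+ Cd8b1+ cells. Penk, the precursor of enkephalins, was seen in 9 of 49 and 2 of 13 members, with 232 against 6 UMIs (7.76, 3.51 to 21.4), of which 85 were in 1 cell (5.12 without it), and the ratio was 13.0 (5.89 to 35.9) under the looser limits. Il1rl1, the interleukin-33 receptor of tissue regulatory T cells, was detected in 36.7% and 61.5% of members with a ratio of 0.762 (0.373 to 1.72; 2.24, 1.27 to 4.26, with Cd8b1+ cells counted), and in 12.4% and 8.16% of helper cells. Klrg1 was detected in 32.7% and 23.1% of members.

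Among homing genes Ccr8 and Ccr7 were higher in the sensitive library, while Itgae, Itgb7 and Cxcr4 had ratios under 1. Of 12 counted (21 listed), 2 were at least 2-fold higher in the sensitive library and none lower, with a median ratio of 0.809. Ccr8, the receptor of tumor-residing regulatory T cells, had 91 against 5 UMIs (3.65, 1.51 to 11.5; 3.17 without its richest cell), and Ccr7, which guides T cells to lymph nodes, 91 against 9 (2.03, 1.02 to 4.58; 1.51 without its richest cell, 0.749 to 3.45; 1.25 with a Cd4 UMI required; 6.58 without the deepest 5% and 6.11 without cycling members). Itgae was found in 36.7% and 61.5% of members with a ratio of 0.526 (0.290 to 1.00), Itgb7 in 83.7% and 100% (0.676, 0.460 to 1.02) and Cxcr4 had a ratio of 0.543 (0.305 to 1.01; 0.865 without its richest cell). With Cd8b1+ cells counted Itgae was at 0.954 and Itgb7 at 1.28. The same ratios in CD8 cells were 1.38 for Itgae, 2.81 for Itgb7 and 2.28 for Cxcr4.

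Cytokine receptors had a median ratio of 0.762 over 11 counted genes. Il21r was higher in the sensitive library, at 33 against 2 UMIs (3.31, 0.846 to 28.5), and Tgfbr2, the signalling receptor of TGF-beta, was lower, at 11 against 9 UMIs (0.245, 0.0924 to 0.669). Without the resistant member richest in Tgfbr2 the ratio was 0.396 (0.127 to 1.45). Il7r, the survival receptor of resting T cells, stood at 0.618 (0.444 to 0.875), but at 1.04 without the deepest 3 sensitive and 1 resistant members, and Ifngr1 at 0.584 (0.441 to 0.781), while the shared chain Il2rg stood at 1.78 (1.19 to 2.75).

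Ldha, Aldoa, Pgk1, Nfkbia and Nr4a1 were higher in the members of the sensitive library. Of 8 counted glycolysis and hypoxia genes 5 were at least 2-fold higher and none lower, with a median ratio of 2.20. Ldha, the lactate dehydrogenase subunit, had 315 against 22 UMIs (2.87, 1.86 to 4.65), Aldoa 275 against 23 (2.40, 1.57 to 3.85), Pgk1 149 against 12 (2.49, 1.38 to 4.93), Gapdh 109 against 9 (2.43, 1.23 to 5.45) and Pkm 320 against 32 (2.01, 1.39 to 2.98; 1.76 without its richest cell). How many of them passed the 2-fold limit depended on the cells counted. With at least 2 Foxp3 UMIs the 5 ratios ran from 2.50 for Pkm to 5.69 for Gapdh, and with a Cd4 UMI required from 2.07 for Gapdh to 6.81 for Pgk1. With the looser filters these 5 ratios ran from 1.67 for Pgk1 to 2.36 for Ldha, and with Cd8b1+ cells counted from 1.24 for Aldoa to 1.86 for Gapdh, all under 2-fold. Without cycling members Gapdh was at 1.70 (0.799 to 4.16), Pgk1 at 1.56 (0.787 to 3.42) and Pkm at 1.45 (0.915 to 2.41). In CD8 cells these 5 ratios ran from 0.998 for Pgk1 to 1.41 for Gapdh. Of 14 counted immediate early genes 5 were at least 2-fold higher and 1, Egr1, lower, with a median ratio of 1.38. Nfkbia, the feedback inhibitor of NF-kappaB, had 731 against 54 UMIs (2.72, 2.06 to 3.65) and was seen in 45 of 49 and 8 of 13 members. Nr4a1, a reporter of antigen receptor signalling, had 136 against 9 (3.03, 1.55 to 6.77), the phosphatase gene Dusp1 305 against 27 (2.27, 1.53 to 3.49) and Fos 114 against 9 (2.54, 1.29 to 5.70), which was 0.850 (0.682 to 1.07) with Cd8b1+ cells counted. Nfkbia was under 2-fold at 1.88 with Cd8b1+ cells counted and 1.89 with a Cd4 UMI required. Dusp1 was under it at 1.62 with Cd8b1+ cells counted and 1.66 with the looser filters. Ratios above 1 were also present in CD8 cells, at 1.40 for Nfkbia, 1.94 for Nr4a1, 1.41 for Dusp1 and 1.34 for Fos. Tissue digestion is known to induce early response genes, and its part here was not tested.

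Ifi27l2a was 0.627 times as high in sensitive as in resistant members, short of the 2-fold limit. Of 6 counted interferon stimulated genes (19 listed), 1 was at least 2-fold higher there (Zbp1, 24 against 12 UMIs, ratio 0.401, 0.193 to 0.880; 0.540, 0.235 to 1.39, without its richest member and 1.00 with Cd8b1+ cells counted) and none was past the limit in the other direction, with a median ratio of 0.694. Ifi27l2a, the most abundant of them, stood at 2081 against 3320.2 CPM (0.627, 0.521 to 0.757), and at 0.974 (0.884 to 1.08) with Cd8b1+ cells counted. The 3 counted p53 targets had a median ratio of 0.912 and none was past the limit, with Cdkn1a at 0.912 (0.468 to 1.94). Genes of the T cell receptor complex had a median ratio of 0.946 over 11 genes, none past the limit. Of 5 counted survival genes Mcl1 (52 against 5 UMIs, 2.09, 0.839 to 6.69; 1.17 with the looser filters) and Birc3 (39 against 3, 2.61, 0.829 to 13.2) were past it, with a list median of 1.70. Of 11 counted cycling genes 4 were past it (Mcm3, Ccna2, Tyms and Top2a), with a median of 1.47, but these rested on few cells. Tyms stood at 0.905 without its richest cell, and the Mki67 ratio of 0.923 became 0.200 (0.0718 to 0.547) without the deepest 5% of members and 3.72 (2.01 to 7.66) with Cd8b1+ cells counted. Of 5 counted resting genes Klf2 (2.03, 1.21 to 3.64; 1.09 with Cd8b1+ cells counted) and Ccr7 were higher and Satb1 lower, with a median of 1.05. Of 3 counted cytotoxic genes Nkg7 was higher (2.61, 0.829 to 13.2), but stood at 1.11 (0.319 to 5.97) without the member richest in it and at 0.587 with a Cd4 UMI required, and Ccl5 lower (98 against 49 UMIs, 0.401, 0.282 to 0.577).

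Among counted genes seen in at least 8 members of the library where they were higher, the 12 highest ratios belonged, apart from Penk, to genes with 1 to 3 resistant UMIs. They were led by Cd74, Areg, Cct8, Snrpd1, Skp1a and Fermt3. Cd74, the invariant chain of antigen presentation, had 280 against 2 UMIs, but 270 of these were in 1 cell and the ratio without it was 1.10 (0.234 to 10.3). Cct8, a subunit of a chaperonin, was seen in 28 of 49 and 1 of 13 members (13.0, 2.26 to 523), and Fermt3, the integrin activator kindlin-3, in 25 and 1 (9.63, 1.65 to 389), with Fermt3 at 2.69 under the looser filters and 1.35 with Cd8b1+ cells counted, and Cct8 at 2.42 with them. The lowest ratio in this ranking belonged to the calcium-binding protein gene S100a6, with 181 UMIs in 27 sensitive and 147 UMIs in 9 resistant members (0.247, 0.198 to 0.309; 0.293 without its richest cell), and 0.511 (0.468 to 0.559) with Cd8b1+ cells counted. The S100a6 ratio was 0.702 in CD8 cells and 1.65 in helper cells. Among the 12 lowest were also Ifi203, an interferon-inducible nuclear protein gene, at 0.330 (0.175 to 0.643), and the antioxidant enzyme gene Prdx5, at 0.356 (0.206 to 0.630).

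**Figure D5:**
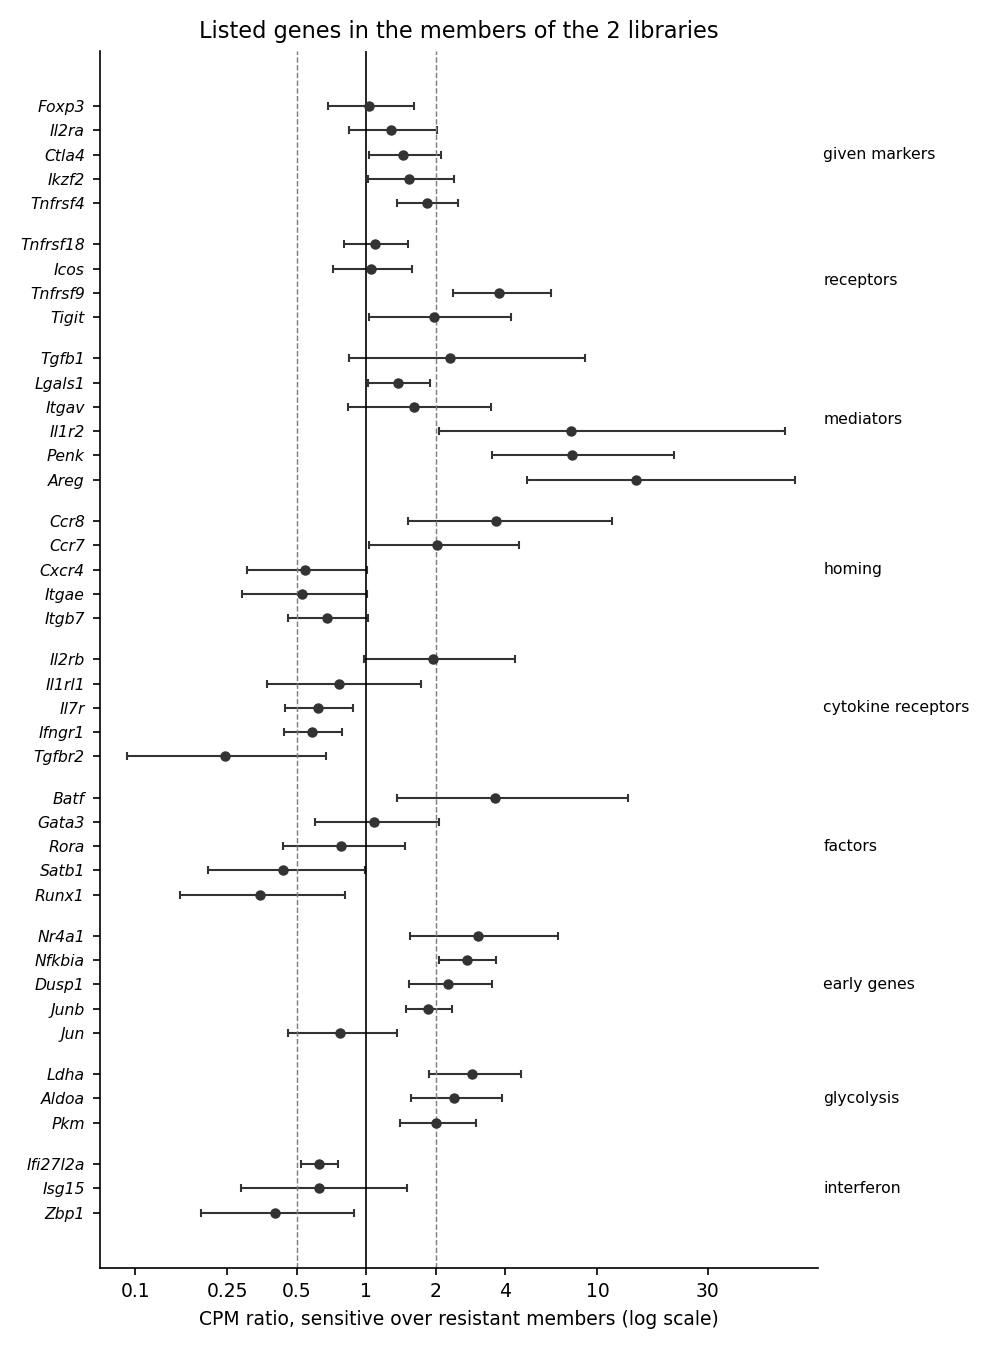
Ratio of CPM in sensitive over resistant members for genes of the lists, grouped by role (log axis), with exact 95% intervals that cover counting error. The solid line marks equal levels and the dashed lines the 2-fold limits; Tnfrsf9 lies at 3.75, Ldha at 2.87 and Tgfbr2 at 0.245, and Areg at 14.6, a value that became 1.48 with more mitochondrial UMIs allowed.

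Cell states were counted from gene lists. Cells with at least 3 of 17 cycling genes were 10 of 49 members (20.4%, 10.2 to 34.3%) in the sensitive and 3 of 13 (23.1%, 5.04 to 53.8%) in the resistant library, against 9.84% and 18.4% of helper and 14.1% and 21.2% of CD8 cells. Thinned to 1000 UMIs, the members' shares were 8.70% and 7.69%, against 1.05% and 6.12% of helper and 4.01% and 6.99% of CD8 cells. Resting genes were found past their limit (2 of 5 genes) in 36.7% and 30.8% of members, 15% and 18.4% of helper cells, and 5.78% and 2.77% of CD8 cells. Thinned, they were past it in 6.52% and 15.4% of members and in 6.28% and 10.2% of helper cells, where few cells were left past the limit (3 and 2 members). Activation receptors were past theirs (2 of 5 genes) in 95.9% and 100% of members, 87.6% and 71.4% of helper cells, and 45.7% and 50.3% of CD8 cells, and thinned in 84.8% and 53.8%, 53.9% and 42.9%, and 12.9% and 9.28%. Interferon genes were past theirs (3 of 18 genes) in 75.5% and 92.3% of members, 61.1% and 69.4% of helper cells, and 76.9% and 78.3% of CD8 cells, and thinned in 32.6% and 46.2%, 17.8% and 38.8%, and 31.8% and 29.8%. The intervals of the 2 libraries overlapped for the members in each of these states.

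T cell receptor beta variable gene transcripts were found in 38 of 49 and 7 of 13 members, spread over 16 and 8 variable genes. The most frequent was Trbv19 in the sensitive library, in 10 of 38 (26.3%), and Trbv13-2 in the resistant library, in 2 of 7. In CD8 cells Trbv13-2 led in both libraries, with 28.2% and 25.6%, as it did in helper cells, with 27.7% and 46.3%.

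Markers of other cell types were counted over the members. Neutrophil markers summed to 0 and 2 UMIs, erythrocyte markers were at 0, and macrophage markers summed to 6 and 4 UMIs with C1qa, Csf1r and Adgre1 at 0. Fibroblast markers summed to 22 and 2 UMIs and natural killer cell markers to 21 and 11. Dendritic cell markers summed to 410 and 3 UMIs, and 396 of the former were in 1 sensitive member, the cell that also held 270 of the Cd74 UMIs. The 8 gamma-delta T cell markers, which include receptor genes and genes such as Sox13 and Blk, summed to 30 and 14 UMIs, each in 1 member of its library, with the receptor constant gene Trdc at 3 UMIs in both. Epcam was seen in 17 of 49 and 1 of 13 members, next to 5.18% and 6.12% of helper and 2.18% and 4.69% of CD8 cells, with Krt18 in 2 and 1 members and Cldn4 in 1 and 0. The other cancer cell markers, Krt8, Krt19, Cldn7 and Lcn2, were at 0 in members of both libraries, and the whole list summed to 26 UMIs in 19 sensitive members and 2 UMIs in 1 resistant member. Ighm was seen in 15 of 49 and 5 of 13 members with the B cell genes Cd79a and Ms4a1 at 0. Members with 2 or more UMIs of another lineage's markers were 10 of 49 in the sensitive library and 0 of 13 in the resistant one, and without them the ratio of shares was 2.93. The part of other cells' RNA in the differences above was not tested.

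The whole tumor libraries of the series, made without T cell enrichment, held few such cells. The control tumor had received no DOX, and the sensitive and resistant ones the same DOX doses as the T cell libraries. Foxp3 was seen in 4 of 501 barcodes of the control tumor library, 1 of 278 of the sensitive and 2 of 275 of the resistant one (0.798%, 0.36% and 0.727%). CD3+ barcodes numbered 89, 8 and 19 there, too few to set against the enriched libraries. The resistant whole tumor library is called resistant in its title and its listed sensitivity but sensitive in its source name, so its condition is in doubt.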

How the data were processed

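UMI counts per gene and barcode were deposited for each library. The authors made these counts from 10x Genomics 3′ v3 libraries with Cell Ranger, version 6.0.0 for the T cell and 3.0.1 for the whole tumor libraries, on mm10 with 32285 features. Their later normalization was not used. The rule for members (at least 500 genes, at most 10% mitochondrial UMIs, CD3, Foxp3, no Cd8b1), the gene lists (28 lists, 308 genes, of which 1, Mx1, was not found) and the comparisons were chosen with earlier results of these data known.

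UMIs were summed over the cells of a gate and library and divided by that gate's total (CPM). Ratios of CPM have exact conditional binomial intervals, shares have Clopper-Pearson intervals and ratios of shares have log-scale delta intervals, all at 95%. Intervals cover counting error only, because each condition is 1 library of 3 pooled tumors, and no p-value was computed. A count of 0 was read as 3 counts. A gene was counted between libraries with at least 20 UMIs over all members, and called at 2-fold. Against other gates it also needed a mean of 100 CPM, a limit set after the values were seen. Ranked genes were the 12 highest and 12 lowest ratios with a UMI in at least 8 members of the library where the gene was higher, and the 15 highest against each gate. T cell receptor, immunoglobulin, ribosomal protein, mitochondrial and unnamed genes were left out of the ranking. Named genes come from this ranking, the 5 markers and the lists. Genes named by low ratios against other gates, and those named from the markers of other cell types, were chosen after their values were seen. Thinning drew 1000 UMIs from each cell without replacement and left out shallower cells (42 sensitive, 7 resistant of the kept barcodes). Scrublet (scanpy 1.11.5) ranked likely doublets, which were left out only in an alternative. Fibroblasts were barcodes with at least 5 collagen UMIs. Python 3.11.15, numpy 2.4.6, scipy 1.17.1 and pandas 2.3.3 were used. The interval code was tested on simulated data. Some items withheld for evaluation are not reported here.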

Additional observations from a re-analysis of the deposited data

How the results depend on the processing

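Across the alternatives the larger share of members among CD3+ cells in the sensitive library kept its direction, with ratios from 2.33 (thinned) to 4.19 (at least 2 Foxp3 UMIs). Counting Foxp3+ Cd8b1+ cells too, leaving out cycling members, using no minimum mean CPM, and leaving out the member richest in a gene were chosen after seeing the data. Genes at least 2-fold higher in the sensitive library, 363 in the counts above, became 208 with a Cd4 UMI required, 231 without the deepest 5% of members, 107 with at least 50 UMIs, 651 with Cd8b1+ cells and 177 without cycling members. Those higher in the resistant library (131) became 28 with at least 50 UMIs, 230 with Cd8b1+ cells and 62 without cycling members, and listed genes among them (6) became 1 with at least 50 UMIs and 3 without cycling members. Against helper cells 39 became 15 with at least 50 UMIs, 21 with Cd8b1+ cells and 61 without cycling members. Against CD8 cells 76 became 30 with Cd8b1+ cells, 521 with no minimum CPM and 115 without cycling members. Thinning changed the states to 8.70% cycling and 6.52% resting in sensitive members, 84.8% and 53.8% with activation receptors, and 32.6% and 46.2% with interferon genes (sensitive, then resistant); with Cd8b1+ cells 87.4% of sensitive members were past the interferon limit. Of the named ratios whose interval excluded 1, these turned: Ctsz to 0.947 with 200 genes and 20% mitochondrial UMIs, Il7r to 1.04 without the deepest 5%, and with Cd8b1+ cells P2ry10 to 1.00, Satb1 to 1.24, Il7r to 1.01, Ifngr1 to 1.13, Fos to 0.850, Zbp1 to 1.00 and Ccl5 to 1.02. Tuba1b, at 0.648 without cycling members, had no resistant UMI left there. That value reads a count of 0 as 3 counts and is a lower bound, so a turn was not shown. Il2ra, whose interval included 1, also changed direction (0.888 and 0.935). Large moves included Areg (14.6 to 1.48 with 20% mitochondrial UMIs), Cd74 (28.1 to 1.10 without 1 cell), and Snrpd1 (11.8 to 1.69) and Fermt3 (9.63 to 1.35) with Cd8b1+ cells. Tyms, at 4.41, also had no resistant UMI without cycling members, and its value of 0.0926 there is likewise only a lower bound. Tnfrsf9, Batf, Nfkbia, Nr4a1, Dusp1 and Tnfrsf4 moved by less than 1.5 times in each alternative run. Over all named ratios 839 alternative values stayed within the counting interval, 60 moved outside it and 10 turned. Turns were counted only for ratios whose interval excluded 1, and the 10 include the Tuba1b bound. Other ratios that crossed 1, such as Il2ra, were counted by the interval alone. The cause was not tested. No paired analysis was possible because each group is 1 library and no replicate could be left out. With 13 resistant members, a gene at 0 there can stand at up to 65.1 CPM.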
